A study of Mus musculus with 2 samples.

Results

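Dividing conventional dendritic cells (cDCs) were chosen by measured values from 2 single-cell RNA libraries of mouse spleen, by the UMIs (unique molecular identifiers, each marking 1 captured mRNA molecule) of a few genes. Of 24292 barcodes, 21573 held at least 500 genes, less than 15% mitochondrial UMIs and less than 30% ribosomal UMIs. Among these kept cells, a member had at least 5 UMIs summed over the division genes Top2a, Mki67, Ube2c, Birc5, Cenpf, Nusap1 and Pclaf, at least 1.5% of its UMIs in the MHC class II genes Cd74, H2-Aa, H2-Ab1 and H2-Eb1, and less than 1% in the neutrophil genes S100a8 and S100a9. It also had no more than 2 UMIs of the plasmacytoid DC gene Siglech and no more than 2 of the B-lineage genes Vpreb1, Igll1 and Cd79a. The rule kept 273 cells, 185 from the wild-type mouse and 88 from the mouse with sickle cell disease (SCD). All of these genes are measured values, so their levels in the members are given below only as a description.

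Both mice came from the Berkeley SCD model on a mixed genetic background, were 12 to 16 weeks old and received no treatment. The wild-type animal was homozygous for the mouse alpha-globin deletion Hbatm1Paz, heterozygous for the mouse beta-globin deletion Hbbtm1Tow and hemizygous for the human globin transgene Tg(HBA-HBBs)41Paz, and did not sickle. The SCD animal was homozygous for all of these alleles and sickled, so that the alpha-globin deletion and the transgene were present in both groups. Spleen cells were depleted of red blood cells by lysis and enriched for DCs with magnetic beads that remove other lineages, before 10x Genomics 3′ libraries were made. Each group was 1 mouse and 1 library, so no difference could be tested against the spread between animals, no p-value is given, and every interval covers counting error only. PCR copies were removed by the UMIs, but the cells of 1 mouse are not replicates of its genotype.

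cDCs take up antigen, cut it into peptides and show it to T cells on MHC class II and class I molecules. They arise from bone marrow precursors that leave the blood as pre-cDCs, and in the spleen part of the pool still divides locally under the growth factor Flt3 ligand before it is lost or matures. cDC1s depend on Irf8 and Batf3, carry the chemokine receptor Xcr1 and the dead-cell receptor Clec9a, and prime CD8+ T cells. cDC2s carry Sirpa, depend in part on Irf4, Zeb2 and Notch2, and prime CD4+ T cells. A dividing cell first makes the enzymes that copy DNA, among them the MCM helicase subunits, the sliding clamp Pcna and the nucleotide-making enzymes Rrm2 and Tyms. It then makes the G2/M proteins that condense, align and separate chromosomes, among them the B-type cyclins, the kinesins and Cdc20, which activates the ubiquitin ligase that starts anaphase.

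The promoters of 4 genes are shown because the results turn on these classes of cell cycle gene, the DNA replication class (Mcm5 and Pcna) and the G2/M class (Ccnb2 and Cdc20). Each runs from 250 bases before to 50 bases after the RefSeq start site in GRCm38.p6, on the gene's own strand. Capitals mark, on either strand, the cell cycle homology element TTTGAA, the E2F site as TTTCCCGC or TTTGGCGC, and the NF-Y site CCAAT, and matches were allowed to overlap. Mcm5 lies at chr8:75109259-75109558 on the plus strand, Pcna at chr2:132253131-132253430, Ccnb2 at chr9:70421505-70421804 and Cdc20 at chr4:118437294-118437593, the last 3 on the minus strand.
Mcm5: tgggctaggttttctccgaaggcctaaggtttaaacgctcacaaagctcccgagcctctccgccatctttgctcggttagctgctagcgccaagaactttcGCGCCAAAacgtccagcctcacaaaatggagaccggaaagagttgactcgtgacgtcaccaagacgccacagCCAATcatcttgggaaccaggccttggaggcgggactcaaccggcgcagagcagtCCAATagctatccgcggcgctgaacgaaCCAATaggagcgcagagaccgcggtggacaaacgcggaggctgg
Pcna: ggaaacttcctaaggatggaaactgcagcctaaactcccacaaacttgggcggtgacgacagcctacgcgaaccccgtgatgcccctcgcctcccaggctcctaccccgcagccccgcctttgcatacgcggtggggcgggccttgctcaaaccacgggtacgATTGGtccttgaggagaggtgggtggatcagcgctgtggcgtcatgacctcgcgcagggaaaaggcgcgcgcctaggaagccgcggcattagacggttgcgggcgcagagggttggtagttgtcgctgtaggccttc
Ccnb2: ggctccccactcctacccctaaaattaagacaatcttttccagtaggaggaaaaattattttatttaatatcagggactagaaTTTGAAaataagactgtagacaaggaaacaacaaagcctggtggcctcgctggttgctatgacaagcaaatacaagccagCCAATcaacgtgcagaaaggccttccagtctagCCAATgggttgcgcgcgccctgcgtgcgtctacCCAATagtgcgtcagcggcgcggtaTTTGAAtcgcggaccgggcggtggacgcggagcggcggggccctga
Cdc20: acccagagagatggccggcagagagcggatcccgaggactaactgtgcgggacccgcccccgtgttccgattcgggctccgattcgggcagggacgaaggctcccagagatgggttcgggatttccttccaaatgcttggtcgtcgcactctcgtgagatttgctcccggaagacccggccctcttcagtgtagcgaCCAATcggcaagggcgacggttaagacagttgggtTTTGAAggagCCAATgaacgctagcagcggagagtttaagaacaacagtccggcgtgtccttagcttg
In Mcm5 the capitals begin with an E2F match on the minus strand, 149 bases before the start site, and go on with 3 CCAAT matches. Pcna held a single CCAAT match on its minus strand and none of the other motifs. Ccnb2 held 2 copies of TTTGAA, the nearer 5 bases after the start site, with 3 of CCAAT, and Cdc20 held TTTGAA 18 bases before the start site with CCAAT on both sides. Of the 32 G2/M genes listed, 27 matched a RefSeq promoter, and of the 32 replication genes 28 did. TTTGAA was in 21 of 27 G2/M promoters (77.8%) and 4 of 28 replication promoters (14.3%), against 18.1% of all 27025 promoters of the same length. An E2F match was in 7 of 28 replication promoters (25%) and in 0 of 27 G2/M promoters, against 1.63% of all. CCAAT was in 24 of 27 (88.9%) and 16 of 28 (57.1%), against 37.9% of all. A match is only a run of letters in the reference, and neither binding nor promoter activity was measured in these cells.

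The wild-type library held 97880318 UMIs over 10845 barcodes with a median of 4991 UMIs per barcode, and the SCD library 189688217 UMIs over 13447 barcodes with a median of 8596. The libraries shared 88 barcode sequences, and 1 wild-type and 2 SCD members carried a shared barcode. The members themselves were sampled to a similar depth, with a median of 15433 UMIs and 4125 genes per cell in wild-type and 17723.5 UMIs and 4143 genes in SCD. Summed over members there were 3218239 UMIs in wild-type and 1607937 in SCD, and expression is given below as CPM, the counts of a gene scaled to a sum of 1000000. A gene counted as expressed with at least 50 CPM and 20 UMIs in either group. Log2 ratios were taken after adding 5 CPM, which pulls low genes towards 0, and the 95% intervals beside them were computed without that addition.

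The division sum chosen by the rule ranged from 5 to 309 UMIs in wild-type members, with a median of 35, and from 5 to 247 in SCD members, with a median of 24. At the lower edge, the 5 wild-type and 6 SCD members with a sum of exactly 5 held Mki67 at 150 and 92.7 CPM and Top2a at 45.0 and 39.7 CPM. The 14 wild-type and 13 SCD cells just outside, with a sum of 4, held Mki67 at 90.4 and 61.0 CPM and Top2a at 52.3 and 13.1 CPM. The edge therefore cuts through a continuous range. Cells of the same gates with a sum of 0 or 1, 2022 in wild-type and 421 in SCD, served as non-dividing cells for comparison.

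Flt3, the receptor that cDCs need to expand, was not part of the rule and was held at 126 CPM in wild-type and 146 CPM in SCD members, near the 166 and 169 CPM of non-dividing gated cells. Zbtb46, a transcription factor that marks the cDC lineage, stood at 64.9 and 63.4 CPM. Itgax, the CD11c integrin chain, was lower in SCD, at 190 and 90.8 CPM, and after thinning of each cell to 5000 UMIs was found in 60.6% of wild-type and 34.1% of SCD members, against 74.3% and 52.6% of non-dividing cells and 14.8% and 2.03% of neutrophil-type cells. Of the 11 pan-cDC genes in the files, 5 were higher and 6 lower in SCD members. After the same thinning, at least 1 Flt3 UMI was found in 76 of 165 wild-type members (46.1%) and 49 of 85 SCD members (57.6%). In neutrophil-type cells thinned the same way, defined by S100a8 and S100a9 at 5% of UMIs or more, the share was 5.11% and 1.42%, so most of the Flt3 signal stood above that background. The stem and progenitor gene Cd34 was found in 1.21% and 2.35% of thinned members.

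Markers of other cell types stood at different levels in the members. The 12 T and NK cell genes summed to 10.3 CPM in wild-type and 9.95 CPM in SCD, with Cd3e, Trbc2, Gzma, Ncr1 and Thy1 at 0 in both. The 8 plasma cell genes summed to 4.97 and 6.84 CPM. The 11 B cell genes summed to 110 and 90.8 CPM, with Pax5 and Fcmr at 0 in both, the 12 macrophage genes to 114 and 28.0 CPM, and the 14 erythroid genes to 171 and 85 CPM. Erythroid UMIs numbered 5 or more in 3 of 185 wild-type and 4 of 88 SCD members, with a median member at 0 and 47.2 CPM, and macrophage UMIs in 9 and 1, with a median member at 28.7 and 0 CPM. In 73 of 185 wild-type and 24 of 88 SCD members, 5 or more UMIs of erythroid, plasma, B, T and NK or macrophage genes were found. The 15 monocyte genes, some of which cDCs also express, summed to 1507 CPM in wild-type and 2761 CPM in SCD. The 14 neutrophil markers summed to 255 CPM in wild-type and 838 CPM in SCD members, and 9 of these genes had a ratio above 0 and 5 below, with a median of 0.95. The granule genes Camp (27.3 and 257 CPM) and Ngp (24.9 and 168 CPM) were among the 5 that reached 50 CPM in either mouse, and those 5 were at least 2-fold higher in SCD, against 1.33% of all 3453 expressed genes. All 5 reached it only through the SCD side. Non-dividing gated cells carried the same genes at a similar level, with Camp at 40.1 and 313 CPM, and in neutrophil-type cells the markers summed to 53948 and 100893 CPM. Scrublet called 4 wild-type and 0 SCD members as doublets, of 395 and 333 calls over all kept cells.

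Dividing cDCs made up a smaller share of the SCD spleen sample but a larger share of its remaining MHC class II gated cells. They were 185 of 9718 kept wild-type cells, or 1.90% (exact 95% interval 1.64 to 2.20%), and 88 of 11855 kept SCD cells, or 0.742% (0.596 to 0.914%). The ratio of SCD to wild-type was 0.390 (0.303 to 0.502). The gated pool they belong to was 24.2% of kept wild-type cells and 5.04% of kept SCD cells. Within that pool the members were 185 of 2351 cells in wild-type, 7.87% (6.81 to 9.03%), and 88 of 598 cells in SCD, 14.7% (12.0 to 17.8%), a ratio of 1.87 (1.47 to 2.37). Because a division sum grows with depth, the gated cells were also thinned to 5000 UMIs, which left out 374 wild-type and 58 SCD cells below that depth. The shares were then 6.68% and 11.9%, and their ratio 1.78 (1.34 to 2.36). All shares of kept cells depend on what the bead enrichment let through. Dividing cells as a whole differed in the other direction, at 6.50% of kept cells in wild-type and 25.5% in SCD. The members were 185 of 632 (29.3%) of these in wild-type and 88 of 3022 (2.91%) in SCD.

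Members were then scored for subtype by their UMIs of 11 cDC1 genes against 11 cDC2 genes, none of them in the rule. A cell with a cDC1 fraction of at least 0.8 was called cDC1-scored, one with at most 0.2 cDC2-scored and any other mixed, over cells with at least 4 such UMIs. Mixed is a range of the score and not a cell type. Its cells held Sirpa and Dtx1 together with the cDC1-listed Wdfy4 and Batf3, which in these data were not confined to cDC1-scored cells (Wdfy4 stood at 643 CPM in cDC1-scored and 360 CPM in other wild-type members). Only 8 wild-type and 3 SCD members held at least 2 UMIs both of Xcr1 and Clec9a and of Sirpa, Dtx1 and Clec4a4.

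cDC1-scored cells were a larger share of the dividing cells in SCD. They were 48 of 181 scored members in wild-type, 26.5% (20.2 to 33.6%), and 46 of 86 in SCD, 53.5% (42.4 to 64.3%), a ratio of 2.02 (1.48 to 2.76). Mixed cells were 118 (65.2%) and 28 (32.6%), and cDC2-scored cells 15 (8.29%) and 12 (14.0%). Of these scored members, 9 wild-type and 11 SCD cells lay within 0.1 of the cDC1 threshold on the score, which runs from 0 to 1. Non-dividing cells of the same gates differed in the same direction, with 163 of 1914 (8.52%) cDC1-scored in wild-type and 124 of 407 (30.5%) in SCD. With at most 5000 genes per cell, the limit in the study's methods, the cDC1-scored shares of members were 14.7% in wild-type and 44.4% in SCD.

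**Figure D1:**
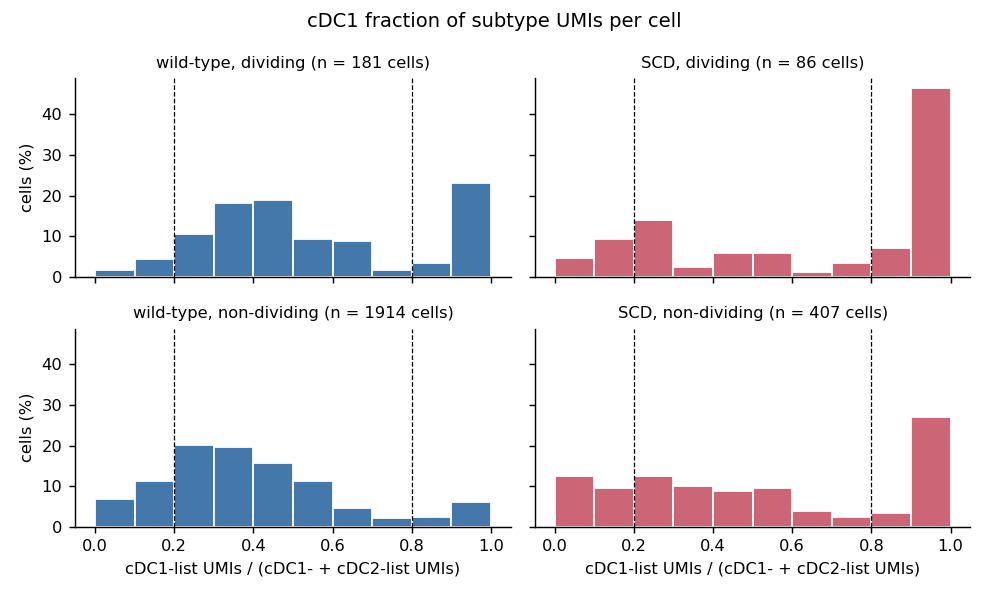
Share of cells (%) by the cDC1 fraction of subtype UMIs per cell, for dividing and non-dividing gated cells of each mouse. Scores at or above 0.8 hold 26.5% of dividing cells in wild-type and 53.5% in SCD, and most other wild-type cells lie between 0.2 and 0.8.

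Relative to all kept cells, cDC1-scored members were 0.494% in wild-type and 0.388% in SCD, a ratio of 0.786 whose interval (0.525 to 1.18) includes 1. The other members were 1.41% and 0.354%, a ratio of 0.251 (0.178 to 0.355). The lower total of dividing cDCs in the SCD sample thus lay mainly in cells that were not cDC1-scored. The share that was dividing also differed by subtype. Among cDC1-scored gated cells, 48 of 232 were dividing in wild-type, 20.7% (15.7 to 26.5%), and 46 of 210 in SCD, 21.9% (16.5 to 28.1%), a ratio of 1.06 (0.740 to 1.52). Among all other gated cells, the dividing share was 6.47% in wild-type and 10.8% in SCD, a ratio of 1.67 (1.21 to 2.32). It was 7.46% and 11.6% in mixed cells (ratio 1.55, 1.05 to 2.29), and 3.54% and 9.45% in cDC2-scored cells (ratio 2.67, 1.28 to 5.56, from 15 and 12 cells). The difference between the ratios of the subtypes was not tested, and their intervals overlap.

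Within each mouse, cDC1-scored cells were dividing more often than the other gated cells. The ratio was 3.20 (2.37 to 4.32) in wild-type and 2.02 (1.38 to 2.97) in SCD. cDC1-scored members also held more RNA, with a median of 30185 UMIs in wild-type and 21083 in SCD against 14305 and 12865 in the other members. After thinning to 5000 UMIs the ratio was 2.34 (1.58 to 3.46) in wild-type and 1.66 (1.05 to 2.63) in SCD. Their size matters for the study's own filter at 5000 genes per cell, which is above the median of 3918 and 3638.5 genes of the other members. It would remove 56.2% of wild-type and 30.4% of SCD cDC1-scored members, and 38 (20.5%) and 14 (15.9%) of all members.

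**Figure D2:**
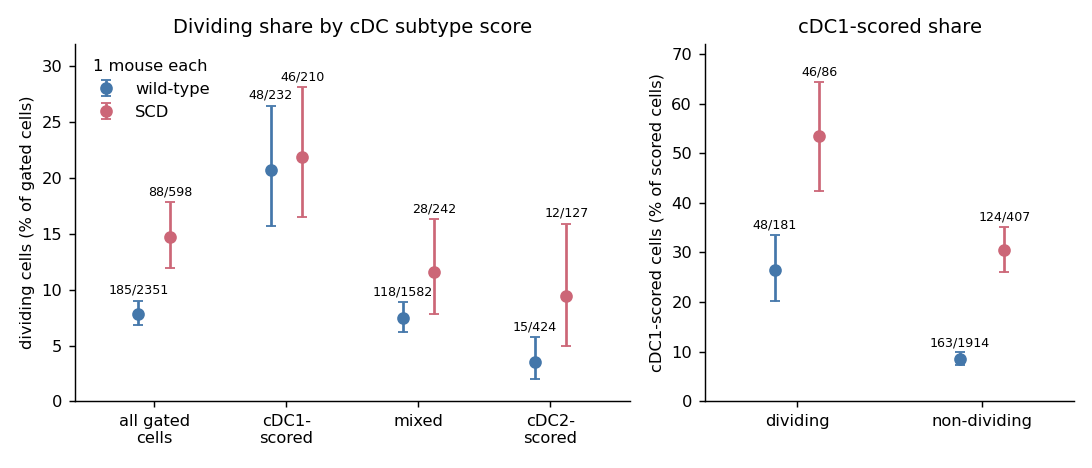
Left, dividing cells as a share (%) of gated cells by subtype score, and right, cDC1-scored cells as a share (%) of scored cells, with points for each mouse, exact 95% intervals as bars and cell numbers printed above. The cDC1-scored points of the mice lie close together at 20.7% and 21.9%, and those of mixed and cDC2-scored cells are higher in SCD.

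A larger share of the members was scored as G2/M in SCD. Cells were thinned to 5000 UMIs and called G2/M-scored where G2/M-list UMIs outnumbered replication-list UMIs, with the genes of the rule left out of both lists of 32. G2/M-scored cells were 76 of 164 in wild-type, 46.3% (38.5 to 54.3%), and 55 of 85 in SCD, 64.7% (53.6 to 74.8%), a ratio of 1.40 (1.11 to 1.75). The ratio was 1.55 (1.02 to 2.37) in cDC1-scored members, where 17 of 41 and 29 of 45 were G2/M-scored, and 1.36 (1.01 to 1.82) in the other members, where 59 of 123 and 26 of 40 were. The rule itself leans to genes of G2/M in both mice, so these shares describe the members and not all cells in cycle. Within 0.1 of the dividing line lay 15 wild-type and 10 SCD cells.

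The mice differed in replication UMIs and not in the median of G2/M UMIs. A thinned wild-type member held a median of 15 replication UMIs (quartiles 4 and 33, maximum 61), and an SCD member a median of 5 (quartiles 2 and 17, maximum 30). The G2/M UMIs had a median of 14 in both, with quartiles of 4 and 28 in wild-type and 3 and 30 in SCD. The upper quartile of the wild-type members, 33, lay above the SCD maximum of 30, and below it the cells of the mice overlapped. The other members showed the wider gap, with a median of 15 replication UMIs in wild-type and 4 in SCD, against 13 and 7 in cDC1-scored members.

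**Figure D3:**
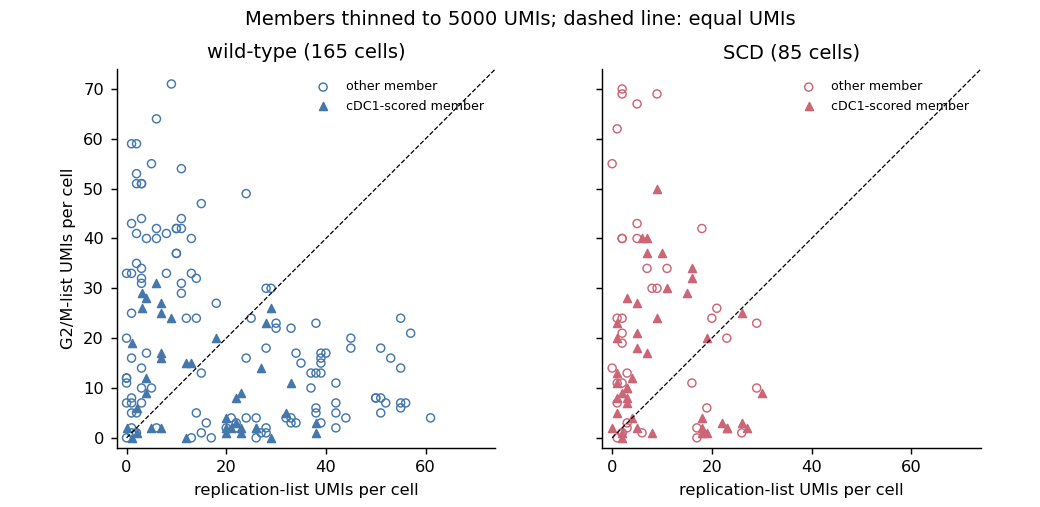
Replication-list UMIs (horizontal) and G2/M-list UMIs (vertical) of each member after thinning to 5000 UMIs, filled for cDC1-scored and open for other members, with a dashed line of equal numbers. Wild-type cells reach 61 replication UMIs along the lower right, whereas SCD cells stop at 30 and the G2/M axis is covered alike, to 71 and 70 UMIs.

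Summed over the members, replication genes stood lower in SCD throughout. All 32 listed genes had a log2 ratio of SCD to wild-type below 0, with a median of -0.79. Of the 25 that were expressed, the median was -0.74, and 4 were at least 2-fold lower and 0 higher, while over all 3453 expressed genes 3.01% were at least 2-fold lower, 1.33% higher and the median was -0.05. The list summed to 3820 CPM in wild-type and 2129 CPM in SCD. Non-dividing gated cells held 446 and 427 CPM, and dividing cells outside the gates 4376 and 3958 CPM, a smaller gap in both than in dividing cDCs.

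Uhrf1, which carries DNA methylation across replication, stood at 164 CPM in wild-type and 65.9 CPM in SCD (log2 ratio -1.26, interval -1.63 to -1.01). Pcna was at 446 and 204 CPM (-1.11, interval -1.31 to -0.95). The MCM helicase subunit Mcm5 was at 157 and 70.9 CPM (-1.10) and Mcm2 at 103 and 44.2 CPM (-1.14). Below the 2-fold line were Mcm3 at 190 and 99.5 CPM (-0.90), Dut, which keeps uracil out of DNA, at 297 and 177 CPM (-0.73), and Slbp, the histone mRNA binding protein, at 249 and 147 CPM (-0.74). Tyms stood at 151 and 85.8 CPM and Rrm2 at 178 and 100 CPM. The direction was the same in both subtype classes. In cDC1-scored members 31 of 32 genes were below 0 (median -0.67 over the list) and in the other members 32 of 32 were (median -0.89). Pcna was at 370 and 203 CPM in cDC1-scored members and at 498 and 206 CPM in the others.

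G2/M genes were close to equal in the whole set and higher in the cDC1-scored members. Over the 32 listed, 22 were above 0 with a median of 0.10, none of the 27 expressed was past 2-fold, and the sums were 3568 CPM in wild-type and 4048 CPM in SCD. Hmmr, a spindle-associated protein, was at 86.4 and 149 CPM (0.76, interval 0.53 to 1.04) and Cdc20 at 85.5 and 139 CPM (0.67, interval 0.44 to 0.96). The centromere histone Cenpa stood at 257 and 389 CPM (0.59) and Ccnb1 at 83.0 and 127 CPM (0.58), with Ccnb2 at 166 and 218 CPM (0.39). Other well-detected members of the list were nearly level, with the Cdk1 partner Cks2 at 291 and 305 CPM and the kinesin Kif23 at 220 and 226 CPM. Among cDC1-scored members alone, 29 of 32 were above 0 with a median of 0.35. There 3 were past 2-fold, Cdc20 (52.6 and 112 CPM), Hmmr (52.6 and 119 CPM) and the kinetochore motor Cenpe (55.7 and 124 CPM), in a comparison in which 0.956% of 3243 expressed genes were at least 2-fold higher and 0.709% lower. In the other members 24 of 32 were above 0 with a median of 0.20.

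Replication-dependent histone genes, whose mRNAs mostly lack the poly(A) tail that 3′ libraries capture, summed to 2960 CPM in wild-type and 3728 CPM in SCD members. The median member went the other way, at 1000 CPM in wild-type and 665 CPM in SCD, with upper quartiles of 5203 and 6531 CPM. Of the 10 histone genes expressed, only Hist1h2bc (26.1 and 57.2 CPM) was past 2-fold, and their median log2 ratio was 0.25. Ccnd1, the cyclin D1 that drives entry into the cycle, was by contrast the listed G1 gene with the largest gap, at 937 CPM in wild-type and 282 CPM in SCD members (log2 ratio -1.71, interval -1.88 to -1.59). It was higher in non-dividing cells of both mice, at 1577 and 701 CPM. The gap lay mostly in members that were not cDC1-scored, 1336 and 362 CPM, against 356 and 235 CPM in cDC1-scored members.

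**Figure D4:**
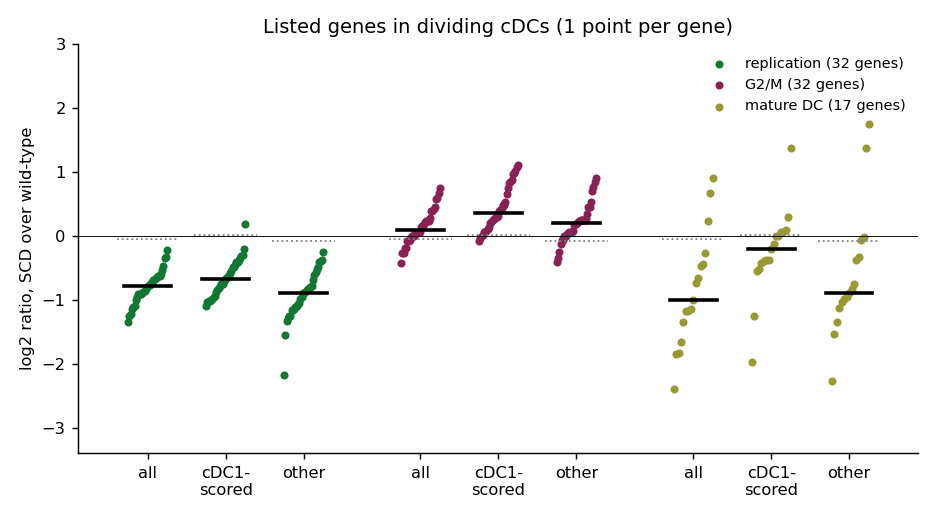
Log2 ratio of SCD over wild-type CPM for each listed gene in all members, cDC1-scored members and other members, 1 point per gene of the replication, G2/M and mature DC lists, with solid bars for list medians and dotted lines for the median of all expressed genes. All replication genes lie below 0 in all members and in other members and 31 of 32 in cDC1-scored members, whereas G2/M genes lie around and above 0, and 14 of 17 mature DC genes lie below 0 in all members.

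The remaining genes were read in the whole set and again by subtype, since cDC1-scored cells were a larger share of the SCD members. Xcr1 stood at 190 CPM in wild-type and 334 CPM in SCD members, Naaa, a lysosomal amidase, at 690 and 1265 CPM, Clec9a at 92.9 and 166 CPM, and Irf8 at 777 and 1443 CPM. Within cDC1-scored members the same genes were near level, with Xcr1 at 461 and 529 CPM, Naaa at 1609 and 1923 CPM and Irf8 at 1835 and 2172 CPM. The median log2 ratio of the 11 cDC1 genes was 0.77 in all members and 0.20 in cDC1-scored members. Genes of this list, among them Xcr1, Clec9a and Naaa and, below, Itgae and Cd8a, also set the subtype score. Their levels within cDC1-scored members are therefore partly fixed by it and serve as a description.

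Some genes known from cDC1s did differ within the cDC1-scored members. Itgae, the CD103 integrin chain that binds E-cadherin, stood at 19.8 CPM in wild-type and 140 CPM in SCD (log2 ratio 2.55, interval 2.21 to 3.49), and its UMIs lay in 12 of 48 and 27 of 46 cells. Non-dividing gated cells held it at 10.9 and 125 CPM, and neutrophil-type cells at 0.639 and 1.77 CPM. Cd8a, the CD8 alpha chain of lymphoid-organ cDC1s, moved in the other direction, at 323 and 126 CPM (-1.33, interval -1.66 to -1.07). Apol7c, a pore-forming apolipoprotein family member of cDC1s, was also lower, at 96.1 and 20.8 CPM. Over all members it was at 93.5 and 13.7 CPM (-2.40), though 1 cell held 50% of its SCD UMIs. Cd24a, a surface glycoprotein of cDC1s, stood at 282 and 475 CPM in cDC1-scored members and at 152 and 343 CPM in all (1.15). Slfn5, a Schlafen family gene, was at 16.0 and 145 CPM in cDC1-scored members, but a single SCD cell held 53.1% of its UMIs there.

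In the members that were not cDC1-scored, 3.0% of 3670 expressed genes were at least 2-fold higher in SCD and 5.64% at least 2-fold lower. The shares in cDC1-scored members were 0.956% and 0.709%. The difference between the classes was not tested, and the SCD sum was smaller in the other members (596754 UMIs against 1011183). Higher genes in the members that were not cDC1-scored included those known from monocytes and monocyte-related cDC2s. Ccr2, the receptor that brings such cells out of the bone marrow, stood at 45.1 CPM in wild-type and 716 CPM in SCD (3.85, interval 3.65 to 4.34), with UMIs in 17 of 137 and 26 of 42 cells. Over all members it was at 95.7 and 522 CPM (2.39), and after thinning it was found in 12.7% of wild-type and 57.6% of SCD members, against 5.11% and 5.78% of neutrophil-type cells. It was higher in SCD also in cDC1-scored members (169 and 407 CPM) and in non-dividing gated cells (155 and 400 CPM). Of the 8 monocyte-list genes expressed in these members, some only through the SCD side, 6 were at least 2-fold higher, with a median of 1.77, among them the lysozyme gene Lyz2 at 373 and 1166 CPM. Lyz2 is also a neutrophil gene, and the part of free neutrophil RNA in it was not tested. Over all 15 listed genes the median was 0.94, with 11 above 0 and 4 below. In cDC1-scored members the median was 0.16 over the 6 expressed genes and -0.30 over all 15, of which 7 were above 0 and 8 below, so its direction there depended on the genes taken.

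Clec10a, a galactose-binding lectin of Ccr2-bearing cDC2s, stood at 9.97 CPM in wild-type and 144 CPM in SCD (3.32) and was at 5.04 and 6.35 CPM in neutrophil-type cells. Cd209a, a DC-SIGN family lectin, was at 96.0 and 377 CPM (1.92), with 24% of its SCD UMIs in 1 cell. The galectin genes Lgals1 (155 and 1118 CPM) and Lgals3 (135 and 965 CPM) were higher to a similar degree, at 2.81 and 2.79. Lgals3 was abundant in neutrophil-type cells as well (547 and 915 CPM), whereas Lgals1 was not (25.7 and 44.5 CPM). Ahnak, a large scaffold protein, was at 48.3 and 409 CPM, and Ifitm3, an interferon-inducible antiviral membrane protein, at 644 and 2378 CPM. The transcription factors Irf8 (48.8 and 208 CPM), Zeb2 (152 and 318 CPM) and Klf4 (108 and 240 CPM) were also higher in SCD. The list of DC transcription factors went both ways. Of its 16 expressed genes, 4 were at least 2-fold higher and 3 lower, against 3.0% and 5.64% of all expressed genes. Their median was -0.14, with 7 above 0 and 9 below. Cx3cr1, the fractalkine receptor, was at 49.3 and 171 CPM. In non-dividing gated cells Clec10a (63.5 and 203 CPM), Lgals1 (100 and 205 CPM) and Lgals3 (290 and 717 CPM) were also higher in SCD. Ahnak was near level there, at 183 and 191 CPM.

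Of 20 cytokine and chemokine genes, 5 were expressed in these members, and of all 20 listed 9 had a ratio above 0 and 7 below. Against a background of 3.0% higher and 5.64% lower, 2 of the 5 were at least 2-fold higher and 2 lower, which is given as a description. The lower ones included Ccl5, a chemokine for T cells, at 201 and 45.2 CPM (-2.04). Neutrophil-type cells held Ccl5 at 138 and 18.9 CPM, also lower in SCD, and its part from free RNA was not tested. Ccl9, another chemokine, stood at 14.2 CPM in wild-type and 290 CPM in SCD members that were not cDC1-scored (3.94, interval 3.76 to 5.00), in 12 of 137 and 21 of 42 cells, and at only 26.4 and 10.9 CPM in neutrophil-type cells. Wfdc17, a small secreted WAP-domain protein, was at 21.5 and 466 CPM (4.15) and Ccl6 at 51.4 and 297 CPM (2.42). Both were more abundant in neutrophil-type cells, Wfdc17 at 1550 and 688 CPM and Ccl6 at 2886 and 772 CPM, with the higher level in the wild-type library. Summed neutrophil markers in these members were 328 CPM in wild-type and 945 CPM in SCD.

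Of the 11 genes of the cDC2 list, 7 were expressed in the members, with 2 at least 2-fold higher in SCD and 2 lower, and 9 in members that were not cDC1-scored, with 3 higher and 3 lower. The background was 1.33% higher and 3.01% lower in the first set and 3.0% and 5.64% in the other. Dtx1, a Notch target of that list, stood at 111 CPM in wild-type and 15.5 CPM in SCD members (-2.49, interval -3.48 to -2.25), and after thinning was found in 39.4% and 7.06% of members, against 2.64% and 0.274% of neutrophil-type cells. Cd4, which splenic Esam-bearing cDC2s express in the mouse, was at 55.3 and 8.08 CPM (-2.20) and Ltb, the lymphotoxin beta chain, at 373 and 74.6 CPM (-2.25). These gaps held in members that were not cDC1-scored, where Dtx1 was at 186 and 40.2 CPM, Cd4 at 91.3 and 15.1 CPM and Ltb at 618 and 198 CPM. Non-dividing gated cells differed in the same direction, with Dtx1 at 145 and 48.8 CPM, Cd4 at 167 and 56.6 CPM and Ltb at 582 and 237 CPM. Ltb was also held by neutrophil-type cells, at 516 and 256 CPM, and its part from free RNA was not tested. In cDC1-scored members Dtx1 and Cd4 were under 5 CPM in both mice. Sirpa itself, at 293 and 236 CPM in members that were not cDC1-scored, and the integrin chain Itgam, at 60.8 and 90.5 CPM, were not past 2-fold.

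Hebp1, a heme-binding protein whose fragment attracts leukocytes, stood at 129 CPM in wild-type and 16.8 CPM in SCD (-2.62, interval -3.56 to -2.38), and in non-dividing cells at 250 and 134 CPM. Chka, choline kinase, was at 145 and 26.1 CPM (-2.27), Tgm2, a transglutaminase, at 97.3 and 20.5 CPM (-2.0), Rras2, a small GTPase, at 64.0 and 11.8 CPM (-2.04), and Ffar2, the short-chain fatty acid receptor, at 349 and 86.4 CPM (-1.95). Neutrophil-type cells held Hebp1 at 43.8 and 17.4 CPM, Chka at 29.2 and 20.2 CPM and Ffar2 at 59.4 and 66.4 CPM. The Hebp1 and Chka levels of SCD members were near these, and the part of free RNA in them was not tested. Bcl2a1b, an anti-apoptotic Bcl2 relative, was at 333 and 79.0 CPM (-2.01), but has near-identical copies between which reads may have been split. Within the members that were not cDC1-scored, the gap was smaller for several of these, with Tgm2 at 162 and 50.3 CPM (-1.60), Ffar2 at 556 and 204 CPM (-1.42) and Bcl2a1b at 491 and 178 CPM (-1.44), while Chka was at 221 and 28.5 CPM (-2.76). In cDC1-scored members Tgm2 held only 4 and 3 UMIs (3.05 and 2.97 CPM), too few to compare the mice. Relb, an NF-kB subunit of cDC2s and mature DCs, was at 143 and 36.7 CPM (-1.83), the immune checkpoint ligand Cd274 at 64.3 and 14.3 CPM (-1.84), and Runx3 at 170 and 61.6 CPM (-1.39). The Cd274 ratio turned in cDC1-scored members, at 1.52 and 11.9 CPM (1.37, interval 0.79 to 6.16), where 2 of 48 wild-type and 3 of 46 SCD cells held UMIs of it, and was -2.26 in the other members. In members that were not cDC1-scored, Relb was at 228 and 75.4 CPM and Runx3 at 244 and 102 CPM. The list of immediate-early and stress genes, which also holds heat shock genes, had a median of -0.60, with 4 of 11 expressed ones at least 2-fold lower against 3.01% of all expressed genes, among them Fosb (93.8 and 22.4 CPM) and Jun (174 and 65.9 CPM). The 20 listed genes summed to 4151 CPM in wild-type and 2809 CPM in SCD members. The sum was also lower in SCD in non-dividing cells, at 4019 and 2992 CPM, and in neutrophil-type cells, at 5440 and 1360 CPM. The part of this gap between the libraries in the result was not tested.

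Trim12a, a TRIM-family gene of a cluster of close relatives, had the lowest ratio, with 168 UMIs in wild-type members (52.2 CPM) and 1 UMI in SCD members (0.622 CPM; log2 ratio without added CPM between -11.7 and -3.89). The gap was not particular to dividing cDCs. Non-dividing gated cells held Trim12a at 92.6 and 3.19 CPM, neutrophil-type cells at 103 and 2.94 CPM and all kept cells at 67.4 and 1.60 CPM. Both mice were on a mixed background, and a difference of strain at this locus cannot be told apart from one of genotype.

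For several gene groups the counts past 2-fold are too small to set apart from the background of 1.33% higher and 3.01% lower, and are given as a description. Of 8 expressed targets of the oxidative stress factor NRF2, 0 were past 2-fold and the median was -0.02, and of 4 expressed heme and iron genes 0 were, with a median of -0.20. The ferritin chains Fth1 (1818 and 1792 CPM) and Ftl1 (1638 and 1863 CPM) were near level, and the heme oxygenase gene Hmox1 was low in both, at 14.9 and 4.98 CPM. Of 7 expressed interferon-response genes only Ifitm3 was past 2-fold, with a median of 0.39. Over all 31 listed the median was 0.053, with 18 above 0 and 13 below. Growth factor receptors had a median of 0.23 with 0 of 8 past 2-fold, Kit standing at 139 and 105 CPM. The MHC class II loading pathway had a median of -0.06, with the non-classical beta chain H2-Eb2 (95.7 and 25.5 CPM) the only 1 of 10 past 2-fold.

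Finally, dividing members were compared with non-dividing cells of the same gates within each mouse, so that both sides came from 1 library. At least 2-fold higher in the dividing cells were 9.23% of 3781 expressed genes in wild-type and 7.21% of 3426 in SCD, and at least 2-fold lower were 6.32% and 4.99%. The division genes of the rule are higher by construction. Beyond these and the listed cell cycle genes, the highest was Stmn1, a microtubule-destabilising protein, at 15.6 CPM in non-dividing and 1079 CPM in dividing wild-type cells and at 22.8 and 901 CPM in SCD. Others were the kinetochore scaffold Knl1 (1.29 and 159 CPM in wild-type, 2.70 and 139 CPM in SCD), the cohesin acetyltransferase Esco2, the mitotic kinesins Kif15 and Kif20b, the spindle pole gene Aspm and the condensin subunit Ncapg. All of these, Stmn1 included, passed the expression minimum only through the dividing side. The cells on that side were chosen by division genes, so these higher levels are given as a description.

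Genes of mature DCs were lower in the dividing cells. Of 17 genes of that list, 17 were lower in dividing than in non-dividing cells in both mice, with medians of -2.03 and -1.76. At least 2-fold lower were 12 of 14 expressed in wild-type and 8 of 9 in SCD, against 6.32% and 4.99% of all expressed genes. The medians over the expressed were -2.19 and -2.23. Ccr7, Fscn1, Il4i1 and Cd83 passed the expression minimum only through the non-dividing side, so these counts and medians over expressed genes lean towards lower. Between the mice, 14 of the 17 were lower in SCD members, with a median log2 ratio of -1.0 over the list, while 1974 of all 3453 expressed genes had a ratio below 0. In cDC1-scored members 10 were lower and 5 higher, with a median of -0.21, and in the other members 15 and 2, with a median of -0.89. Non-dividing gated cells differed in the same direction, with 15 of 17 lower in SCD and a median of -1.02. The list summed to 2950 CPM in non-dividing and 720 CPM in dividing cells of the wild-type mouse, and to 1350 and 331 CPM in SCD. In neutrophil-type cells it summed to 378 CPM in wild-type and 97.7 CPM in SCD. The part of free RNA in the gap between the mice was not tested. Ccr7, the receptor that leads mature DCs to T cell zones, stood at 159 and 16.2 CPM in wild-type and at 62.3 and 4.35 CPM in SCD. In dividing cDC1-scored cells 0 Ccr7 UMIs were found in either mouse, against 202 and 58.2 CPM in their non-dividing counterparts. After thinning, Ccr7 was found in 3.03% of wild-type and 1.18% of SCD members and in 19.0% and 9.21% of non-dividing cells, while 3.62% and 0.356% of neutrophil-type cells held it. The wild-type share in dividing cells was not above that background, and the SCD share was 1 of 85 cells.

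Fscn1, which bundles actin in the dendrites of mature DCs, was at 192 and 32.9 CPM in wild-type and 61.3 and 9.95 CPM in SCD. Il4i1, a secreted amino acid oxidase, was at 322 and 46.0 CPM and at 135 and 11.2 CPM, and Cd83, which stabilises surface MHC class II, at 259 and 42.3 CPM and at 157 and 24.9 CPM. The SCD levels in dividing cells rested on few cells, since 1 cell held 75% of the 16 Fscn1 UMIs and 66.7% of the 18 Il4i1 UMIs, and the 7 Ccr7 UMIs lay in 1 of 88 cells. Ccl5 was at 1015 and 124 CPM and at 342 and 23.6 CPM. Its levels in dividing cells were near the 138 and 18.9 CPM of neutrophil-type cells. H2-M2, a non-classical MHC class I gene of activated DCs, was at 233 and 1.86 CPM and at 84.6 and 1.87 CPM. Lower in dividing cells were also the signalling brake Rgs1, the stress gene Gadd45b and the lipid mediator receptor Ptafr. Among these was Ccnd2, cyclin D2, at 154 and 25.2 CPM in wild-type and 61.5 and 9.33 CPM in SCD, although it is a gene of cell cycle entry. The MHC class II loading genes were lower to a lesser degree, with medians of -0.63 and -0.77. MHC class II itself, a gate of the rule, took a median of 3.65% and 3.39% of UMIs in members against 4.93% and 4.67% in non-dividing cells.

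**Figure D5:**
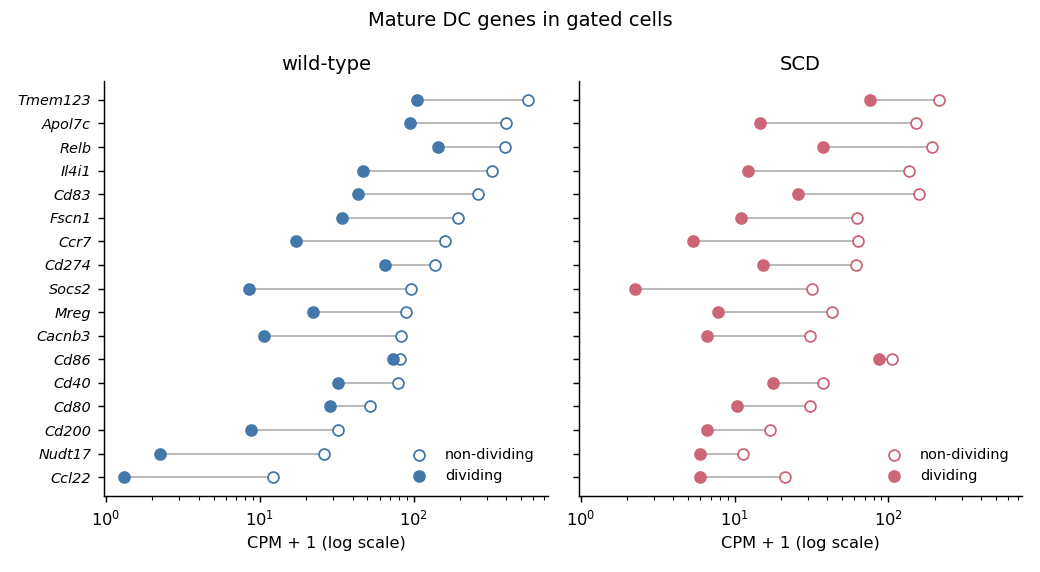
CPM plus 1 on a log scale for each mature DC gene in non-dividing (open) and dividing (filled) gated cells of each mouse. The filled point lies left of the open one for all 17 genes in both mice, as for Ccr7, at 159 and 16.2 CPM in wild-type and 62.3 and 4.35 CPM in SCD.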

How the data were processed

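UMI counts per gene and barcode, deposited by the authors for 1 wild-type and 1 SCD mouse as 10x matrices, were used as they stood. The submitters' processing notes name Cell Ranger 4.0.0, the build GRCm38.p6, R 4.4, Seurat 3.2.3 and Scanpy 1.6.0. Cells were kept with at least 500 genes, under 15% mitochondrial and under 30% ribosomal UMIs, without the upper limit of 5000 genes that the study's methods give. The members and the gene lists were chosen with earlier results of these data known. Raw UMIs were summed over cells per mouse and scaled to CPM, 5 CPM was added, and genes with at least 50 CPM and 20 UMIs in either mouse counted as expressed. Intervals are exact Clopper-Pearson for shares, log-scale for ratios of shares and exact conditional binomial for ratios of sums, all at 95% and for counting error only. Thinning drew 5000 UMIs per cell without replacement (seed 20). Doublets were called per library with Scrublet in scanpy 1.11.5 and kept.

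Tables were handled with pandas 2.3.3 and numpy 2.4.6, intervals computed with scipy 1.17.1 and plots drawn with matplotlib 3.10.9, under Python 3.11.15, and the gene comparison was tested on simulated data. The simulated sums held Poisson counting error only, so that test does not cover variation between cells or mice. Genes are named where they were among the 12 highest or 12 lowest ratios outside the rule, the marker lists and the globin, immunoglobulin, mitochondrial, ribosomal and sex-linked genes, among the most abundant 4 of a list, or a listed gene past 2-fold. A few listed genes named beside these (Hmox1, Itgam, Klf4, Cd34, Tyms, Zbtb46) and Trim12a in other cell sets were chosen after their values were seen. Not every gene that met these criteria is described above. Among the highest ratios, Olfm1 (75.8 CPM in wild-type and 270 CPM in SCD members), Selenop (12.4 and 53.5 CPM) and Fcgr2b (15.2 and 54.7 CPM) were left out. Promoters came from RefSeq. Alternatives varied the gates, thinning, subtype thresholds, scaling, added CPM, the expression minimum and the members included.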

Additional observations from a re-analysis of the deposited data

Results flagged for a closer look

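Apoe, which encodes a lipid transport protein, was the only 1 of 2901 genes expressed in both comparisons that was at least 2-fold higher in SCD in the cDC1-scored members and at least 2-fold lower in the other members. In cDC1-scored members it stood at 30.5 CPM in wild-type and 71.2 CPM in SCD, a log2 ratio of 1.10, with UMIs in 17 of 48 and 20 of 46 cells. In the other members it stood at 226 and 63.7 CPM, a log2 ratio of -1.75, with UMIs in 56 of 137 and 8 of 42 cells, and 1 SCD cell held 63.2% of the UMIs there. Apoe was also lower in SCD in neutrophil-type cells (162 and 35.6 CPM) and in all kept cells (497 and 131 CPM). Non-dividing gated cells held it at 349 and 462 CPM. The part of free RNA in these values was not tested. Each class came from 1 mouse per genotype, and the difference between the classes was not tested.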

How the results depend on the processing

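No paired analysis was possible because only 1 mouse was sampled per genotype. The cause of a change was not tested except where fewer cells or more genes enter by construction. The dividing share of gated cells was 6.42% in wild-type and 11.2% in SCD with a division sum of at least 10 UMIs, 10.1% and 19.1% with at least 3, 6.43% and 11.7% with MHC class II at 3% of UMIs or more, 6.40% in wild-type with at most 5000 genes, and 4.92% and 11.1% without the 73 wild-type and 24 SCD members that held 5 or more UMIs of erythroid, plasma, B, T and NK or macrophage genes. It was higher in SCD in each of these settings. Thinning to 10000 UMIs gave a ratio of 1.33. The G2/M-scored share in SCD was 75.8% with at least 10 UMIs. In cells chosen by the replication and G2/M lists instead, an alternative added after seeing the data, it was 31.5% in wild-type and 57.3% in SCD. The cDC1-scored share was 14.7% in wild-type and 44.4% in SCD with at most 5000 genes. Genes at least 2-fold higher in SCD, 46 as reported, numbered 115 with at most 5000 genes, 103 with no minimum CPM, 121 in cDC2-scored members, 81 with members weighted equally and 110 in members that were not cDC1-scored, a class added after seeing the data. Genes at least 2-fold lower, 104 as reported, numbered 69 with the stricter MHC class II gate, 209 with at most 5000 genes, 61 with 20 CPM added, 308 with no minimum CPM, 204 in cDC2-scored, 23 in cDC1-scored and 207 in other members. The replication median, -0.74 over expressed genes, was -0.57 with the stricter MHC class II gate, -0.90 without members with UMIs of other cell types, -1.01 in cDC2-scored and -0.61 in cDC1-scored members. The G2/M median, 0.06 over expressed genes, was -0.16 with at most 5000 genes, -0.015 without members with UMIs of other cell types, -0.18 in cDC2-scored and 0.48 in cDC1-scored members, and -0.077 with members weighted equally, so its direction was not stable. The cDC1 median, 0.77, was 1.35 with at most 5000 genes and 1.06 with members weighted equally. In members that were not cDC1-scored, a class set by these same genes, it was -0.91 over 3 expressed genes (interval -1.03 to 1.31). Over all 11 listed genes it was 0.036 there, with 6 above 0 and 5 below. In cDC2-scored members (15 and 12 cells) the histone median was -0.10 and the Cd24a ratio -1.70, against the direction in all members. In cDC1-scored members the ratio turned for Dtx1 (0.056), Cd4 (0.15), Ccl5 (0.019), Cd209a (-1.30), Cd274 (1.37), H2-Eb2 (0.14), F13a1 (-0.30), Car2 (1.28) and Clec7a (-0.39). The intervals included 0 for Dtx1, Cd4, Ccl5, H2-Eb2, F13a1 and Clec7a, as for the histone median, so these turns were within counting error. Dtx1 rested on 1 UMI in each mouse there. Over all alternatives, 107 values for shares, counts and the main list medians moved by less than their counting interval or 1.5 times, and 37 moved further. Of those for single genes and minor lists, 759 stayed within these limits and 220 moved further without turning. The 11 that turned are those just given. Depth limits genes below 50 CPM and sets of few cells.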

Other observations

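Cxcl11, an interferon-induced chemokine gene singled out after its values were seen, shows how a single cell can set a sum. It held 73 UMIs in SCD members (45.4 CPM) and 0 in wild-type members, where the floor of 3 counts is 0.932 CPM and the exact 95% upper limit 1.15 CPM, and all 73 lay in 1 of 46 cDC1-scored SCD members. SCD non-dividing gated cells held 0 Cxcl11 UMIs, and wild-type ones 64 (3.76 CPM).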
